A study of Mus musculus with 29 samples.

Results

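The 10 genes described here encode the carnitine shuttle and the enzymes of long-chain and medium-chain fatty acid oxidation in mitochondria. They were taken by symbol from a table of 24770 genes, and all 10 were found: Cpt1a, Cpt1b, Slc25a20 and Cpt2 of the shuttle, the acyl-CoA dehydrogenases Acadvl, Acadl and Acadm, the trifunctional protein subunits Hadha and Hadhb, and the thiolase Acaa2. They were followed in 29 RNA-seq libraries of brown adipose tissue (BAT) and gastrocnemius skeletal muscle (SkM) from male wild-type C57BL/6J mice. Control mice (BAT n = 3, SkM n = 4) were sedentary on a chow diet taken ad libitum, CR mice (BAT n = 4, SkM n = 3) were sedentary under calorie restriction reached by stepwise cuts in food, EX mice (BAT n = 4, SkM n = 4) ran on a treadmill at low intensity with food ad libitum, and CREX mice (BAT n = 4, SkM n = 3) received both treatments. All groups were fasted for some hours before tissues were taken, and the last run preceded this by about a day, so no group was fed at sampling. The labels do not tie a BAT library to a SkM library of the same mouse.

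Long-chain fatty acids enter the mitochondrion as carnitine esters. Carnitine palmitoyltransferase 1 (CPT1), made by Cpt1a in liver and many other tissues and by Cpt1b in muscle and brown fat, forms the ester at the outer membrane and is held back by malonyl-CoA; the carrier Slc25a20 exchanges it for free carnitine across the inner membrane, and Cpt2 returns the acyl group to coenzyme A. Each turn of beta-oxidation then starts with an acyl-CoA dehydrogenase matched to chain length and ends with a thiolase, and brown adipocytes and oxidative muscle fibres are rich in these enzymes.

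Calorie restriction lowered 9 of the 10 genes in SkM when all 4 groups were fitted together, with log2 changes from -0.54 (Cpt1b) to -0.82 (Hadhb), where 16.9% of all genes passed as lower, and Cpt1a was the member that did not pass the test. In BAT 3 members passed for CR, by 18.3% or less, a count near the background of 17.5% of all genes lower and 15.8% higher. Treadmill training changed none of the 10 past the test in either tissue, with or without CR. Throughout, values are CPM, read counts relative to library size after scaling by trimmed mean of M-values (TMM), log2 changes carry their standard error (SE), and a gene passed the test at a Benjamini-Hochberg adjusted p under 0.05 over all genes in edgeR's quasi-likelihood fit.

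Depth was even, at 21047242 to 24919377 counts in BAT and 23050918 to 23425284 in SkM. Brown adipocyte identity was clear, with Ucp1 between 1366 and 4740 CPM in BAT and at most 0.139 CPM in SkM. Within BAT, Ucp1 was at 2930 to 4740 CPM in control and EX libraries and 1366 to 2574 CPM in CR and CREX libraries. Muscle RNA was present in BAT to an uneven degree, the sum of 12 fibre markers running from 6.25 CPM to 7524 CPM against 135295 CPM or more in SkM. In SkM, CREX libraries 2 and 3 stood apart: the sum of 8 slow fibre markers was 99.1 and 36.4 CPM there, 615 CPM in CREX library 1 and 375 to 2123 CPM in the other groups. Hepatocyte markers, a sign of liver RNA, summed to 50.8, 285 and 289 CPM in the SkM CR libraries and to 60.2 CPM in CREX library 1, and to no more than 8.62 CPM in the other SkM libraries.

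In untreated mice the pathway was far more abundant in BAT. The 10 genes summed to 11449 ± 480 CPM in BAT (SD, n = 3) and to 2354 ± 141 CPM in SkM (SD, n = 4). Of the 10 members, 9 were higher in BAT, where 37.2% of all genes tested passed the test in that direction, from Cpt1b at a log2 difference of 0.70 ± 0.10 to Acaa2 at 2.88 ± 0.14 (SE, adjusted p at or under 5.14e-05). Cpt1a was at nearly one level in both tissues, at 12.6 ± 1.20 CPM in BAT and 11.5 ± 1.24 CPM in SkM (SD). CPM were scaled within each tissue, whereas the test scaled both tissues together. In that test the log2 difference of Cpt1a was -0.14 ± 0.11 (SE, adjusted p = 0.268). Scaling by library totals in place of TMM moved the median of all genes by 0.33 on the log2 scale in this comparison and turned the sign of Cpt1a, which was past the test under neither scaling.

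The order of the levels per kilobase of transcript also differed between tissues. In BAT controls Hadhb led at 1222 CPM per kb, followed by Acaa2 (871), Acadl (826), Acadm (757) and Acadvl (709), then Hadha (349), Slc25a20 (246), Cpt1b (239), Cpt2 (174) and Cpt1a (2.93). The libraries of Acaa2 and Acadl overlapped, as did those of Slc25a20 and Cpt1b, while the other neighbours in this order were apart. In SkM controls Hadhb led again at 188 CPM per kb, Acadm (145), Acadvl (140) and Acadl (138) overlapped, and Cpt1b followed at 122 CPM per kb, ahead of Hadha (108) and Acaa2 (98.3), whose libraries overlapped. Slc25a20 (43.0), Cpt2 (34.8) and Cpt1a (2.67) closed the order in SkM. The muscle isoform gene thus had rank 5 of the 10 in SkM and rank 8 in BAT, and Cpt1a was lowest in both.

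The upstream sequences of 3 genes are shown because they mark the extremes of the SkM response: Hadhb and Cpt2, with the smallest adjusted p-values for the CR effect over all 4 groups, and Cpt1a, for which no fall was detected. Each is the 250 bases before the promoter's listed start in GRCm38, read 5′ to 3′ on the gene's strand. The windows are chr5:30155003-30155252 (plus strand) for Hadhb, chr4:107923590-107923839 (minus strand) for Cpt2 and chr19:3323051-3323300 (plus strand) for Cpt1a. The RefSeq gene start directly follows the window for Hadhb and Cpt2. For Cpt1a the RefSeq gene start lies further upstream, at 3322326, so the Cpt1a window falls inside the gene as RefSeq draws it. Capitals mark a GC box (GGGCGG, or CCGCCC on the other strand), a nuclear receptor half-site (AGGTCA, or TGACCT on the other strand) or a CCAAT box.
Hadhb: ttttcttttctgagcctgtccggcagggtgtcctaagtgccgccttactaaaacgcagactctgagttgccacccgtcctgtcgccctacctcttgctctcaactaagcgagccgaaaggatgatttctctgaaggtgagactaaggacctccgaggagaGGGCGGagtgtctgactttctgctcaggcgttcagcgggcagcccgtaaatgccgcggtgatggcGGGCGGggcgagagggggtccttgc
Cpt2: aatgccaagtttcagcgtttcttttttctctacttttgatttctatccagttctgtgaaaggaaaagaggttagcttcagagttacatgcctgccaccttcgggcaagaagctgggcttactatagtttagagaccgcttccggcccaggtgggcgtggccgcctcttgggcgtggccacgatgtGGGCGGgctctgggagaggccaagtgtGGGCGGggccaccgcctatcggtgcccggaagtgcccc
Cpt1a: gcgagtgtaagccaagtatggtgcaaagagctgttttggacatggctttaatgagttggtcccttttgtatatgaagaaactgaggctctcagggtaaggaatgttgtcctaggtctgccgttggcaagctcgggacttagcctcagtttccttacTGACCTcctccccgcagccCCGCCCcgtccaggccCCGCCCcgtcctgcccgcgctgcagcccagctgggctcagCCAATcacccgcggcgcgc

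Promoters of 8 members were matched in RefSeq, all but Cpt1b and Acaa2. A GC box on either strand was found in 6 of the 8 (Acadl, Cpt1a, Cpt2, Hadha, Hadhb and Slc25a20), against 32.7% of 32851 promoters of this length. The half-site AGGTCA was found in 3 (Acadm, Acadvl and Cpt1a), against 14% of promoters, and CCAAT in Cpt1a alone, against 33.8%. The direct repeat that PPAR receptors bind, searched on both strands as 2 half-sites AGGTCA in a row with 1 free base between them, was in no member's window and in 0.0335% of all promoters. Its looser form, with the half-site AGGNCA (0.338% of promoters, and holding every match of the strict form), and the extended half-site TCAAGGTCA (0.387%, each match also holding AGGTCA) were in no member's window either. These are letter matches in a short window only. Hadha and Hadhb lie head to head on chromosome 5 with 272 bases between their starts, so their windows share sequence. The GC box found for Hadha, 188 bases before its start, is the Hadhb box 90 bases before the Hadhb start. That box is counted for both genes.

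**Figure D1:**
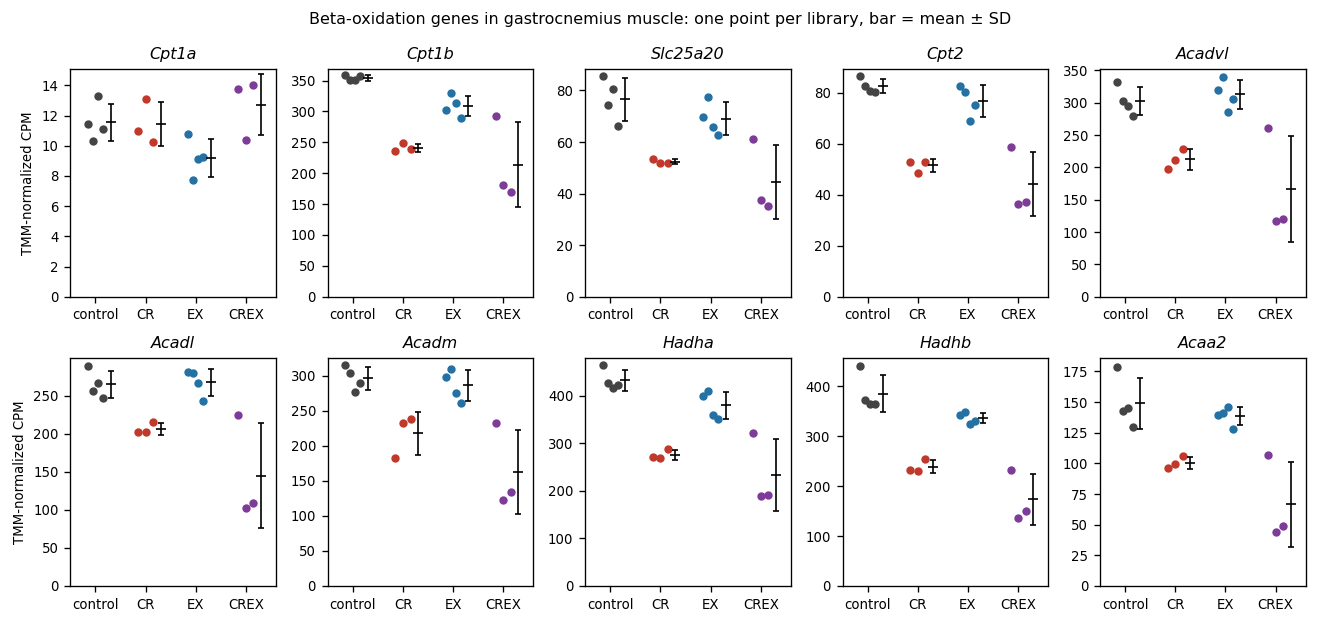
Expression of the 10 genes in SkM, as TMM-normalized CPM (vertical axes start at 0) for each library of the control, CR, EX and CREX groups, with the mean ± SD beside the points. For every gene but Cpt1a the CR points lie below all control points, and CREX library 1 (leftmost CREX point) lies above CREX libraries 2 and 3.

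In sedentary mice, CR lowered 8 of the 10 genes in SkM past the test, while 7.67% of all genes tested passed it as lower. Hadhb fell by 37.6%, Cpt2 fell by 37.3% and Hadha fell by 35.8%, and these 3 also passed a fold of 1.5, as did 5.32% of all genes in that direction. In 9 members all 3 CR libraries lay below all 4 control libraries, as in 14.5% of all genes. The exception was Cpt1a. The median log2 change of the 10 was -0.54, against 0.005 over all genes.

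Among the shuttle genes, Cpt1b held 358, 350.4, 350.4 and 357 CPM in the 4 control libraries and 235, 249 and 239 CPM in the 3 CR libraries. The groups were tight and far apart, at a log2 change of -0.55 ± 0.10 (SE, adjusted p = 0.00676). Cpt1b counts were fractional in 28 of 29 libraries, those of the other 9 members in none. A readthrough transcript (Gm44502), at 0.489 to 6.01 CPM, spans it and its neighbour Chkb on chromosome 15, and its part in these fractions was not tested.

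Slc25a20, the carrier, held 85.6, 74.3, 80.4 and 66.1 CPM in controls and 53.4, 51.7 and 51.7 CPM in CR libraries (log2 change -0.54 ± 0.11, adjusted p = 0.0105). Cpt2, the inner membrane transferase, held 86.6, 82.8, 80.6 and 80.4 CPM in controls and 53.0, 48.7 and 52.9 CPM under CR (log2 change -0.67 ± 0.10, adjusted p = 0.00185). Neither gene's groups overlapped, and Cpt2 had the smallest adjusted p of the 10. Cpt1a held 11.4, 10.3, 13.3 and 11.1 CPM in controls and 10.98, 13.1 and 10.2 CPM in CR libraries, which overlapped throughout (log2 change -0.01, 95% interval -0.29 to 0.28, adjusted p = 0.985).

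The dehydrogenases gave the smaller log2 changes among the enzymes, a ranking that was not tested. Acadvl, which acts on very long chains, held 333, 302, 295 and 280.2 CPM in controls and 197, 212 and 229 CPM in CR libraries (log2 change -0.50 ± 0.11, adjusted p = 0.0172). Acadm, which acts on medium chains, held 315, 304, 276 and 289.8 CPM in controls and 183, 233 and 238 CPM under CR (log2 change -0.43 ± 0.13, adjusted p = 0.0448). Acadl, which acts on long chains, held 289, 256, 267 and 247 CPM in controls and 202, 202 and 215 CPM in CR libraries. None of the 3 overlapped between groups, but Acadl did not pass the test (log2 change -0.35 ± 0.11, adjusted p = 0.0556).

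Of the trifunctional protein, which carries out the later steps on long chains, the alpha subunit gene Hadha held 464, 426, 416 and 422 CPM in controls and 271, 269 and 287 CPM in CR libraries (log2 change -0.64 ± 0.11, adjusted p = 0.00409). The beta subunit gene Hadhb held 441, 372, 363 and 364 CPM in controls and 231, 231 and 254 CPM under CR (log2 change -0.68 ± 0.12, adjusted p = 0.00493). Acaa2, the thiolase for shorter chains, held 179, 143, 145 and 130.0 CPM in controls and 96.2, 99.5 and 106 CPM in CR libraries (log2 change -0.56 ± 0.13, adjusted p = 0.0172). All 3 genes were separated between groups, with control library 1 the highest of its group for each.

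Cpt1b, Slc25a20, Cpt2, Hadha and Hadhb stayed past the test in all 15 alternative settings, and Acadvl, Acadm and Acaa2 lost it in 4, 9 and 3 of them. Without CR library 2, and with library totals in place of TMM, 5 members passed. The same CR libraries held more RNA of hepatocyte markers, of which 11 of 11 tested rose, and less of endothelial markers, of which 5 of 8 fell (summed 181 to 219 CPM under CR against 281 to 351 CPM in controls); 3 of 8 fibroblast markers and 1 of 6 immune markers fell. The sums of the slow fibre markers overlapped (1729 to 2036 CPM under CR, 1108 to 2123 CPM in controls), but those of 12 other fibre markers, mostly of fast fibres, did not: they were 166147 to 229067 CPM under CR and 135295 to 151444 CPM in controls, and 3 of the 12 rose (Actn3, Atp2a1 and Mylpf). Of the fast myosin genes among them, Myh4 (type IIB fibres) was at 35512 to 38229 CPM under CR and 18316 to 29941 CPM in controls, and Myh2 (type IIA, the more oxidative) at 1082 to 2203 CPM under CR and 2066 to 3677 CPM in controls, overlapping. The part of fibre types and of other cell types in the result was not tested, and in bulk tissue fewer cells of a type and less RNA per cell cannot be told apart.

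In trained mice, CREX was compared with EX. Hadhb, Acadm, Cpt2 and Hadha passed the test, all lower, with 6.96% of all genes lower past the test. Hadhb held 343, 347, 324 and 331 CPM in the EX libraries and 233, 137 and 150.0 CPM in the CREX libraries (log2 change -0.96 ± 0.19, adjusted p = 0.0142). Cpt2 held 82.6, 80.5, 68.9 and 75.2 CPM in EX and 58.7, 36.4 and 37.3 CPM in CREX libraries (log2 change -0.80 ± 0.18, adjusted p = 0.0237). For both genes the groups were apart, with CREX library 1 nearest to the EX libraries.

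Acadm held 299, 310.2, 275 and 261 CPM in EX and 232, 123 and 134 CPM in CREX libraries (log2 change -0.82 ± 0.22, adjusted p = 0.0426). Hadha held 399, 409, 360.0 and 351 CPM in EX and 321, 188 and 192 CPM in CREX libraries (log2 change -0.70 ± 0.20, adjusted p = 0.0479). The CREX libraries lay below every EX library in 8 members, as in 14.6% of all genes, the exceptions being Cpt1a and Cpt1b. The other members had adjusted p-values from 0.0597 to 0.0934, among them Acaa2, with the most negative log2 change of the 10, -1.06 ± 0.31.

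Acaa2 held 140, 141, 146 and 128 CPM in the EX libraries and 107, 44.2 and 48.6 CPM in the CREX libraries. Acadvl held 320.0, 340, 286 and 305 CPM in EX and 261, 117 and 121 CPM in CREX libraries. Acadl held 280, 279.7, 266 and 243 CPM in EX and 224, 102 and 109 CPM in CREX libraries. In each of these genes CREX libraries 2 and 3 were close together and CREX library 1 was above them. Cpt1b held 303, 329, 314 and 290.1 CPM in EX and 293, 180.4 and 169 CPM in CREX libraries, so library 1 lay within the EX range. Slc25a20 held 69.8, 77.5, 65.6 and 62.9 CPM in EX and 61.0, 37.4 and 35.3 CPM in CREX libraries.

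The size of the trained comparison rested on CREX libraries 2 and 3. Without CREX library 1, 9 members passed and all 9 were lower, Acaa2 at a log2 change of -1.60 ± 0.11. With CREX library 2 left out none passed and with library 3 left out 1 did; leaving out any EX library also left 1. With CREX libraries 2 and 3 both left out, so that CREX rested on 1 library assumed to vary like the EX group, none passed and Hadhb came nearest (log2 change -0.51 ± 0.12, adjusted p = 0.052). DESeq2 called 9, and the fit over all 4 groups called 10, Cpt1a among them as higher.

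**Figure D2:**
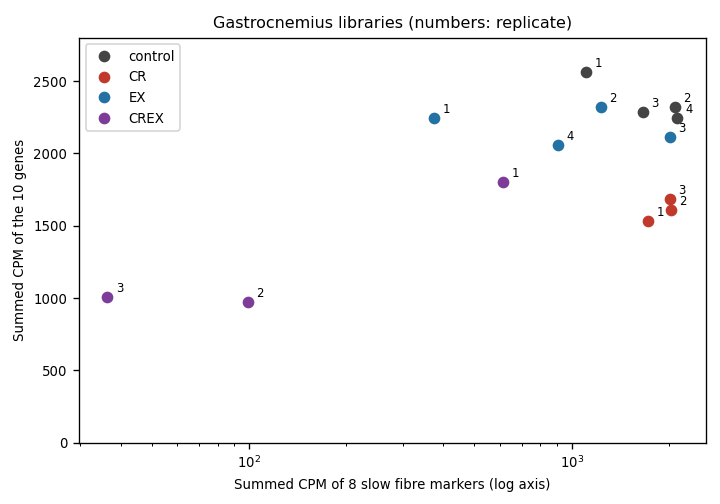
Summed CPM of the 10 genes (vertical axis) against the summed CPM of 8 slow fibre markers (log axis) in the 14 SkM libraries, coloured by group and numbered by replicate. CREX libraries 2 and 3 lie at the lower left, the 3 CR libraries lie below all control libraries at similar slow marker sums, and EX library 1 has a low slow marker sum with a member sum inside the EX range.

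Slow fibre marker RNA was low where these 9 genes were lowest. Over the 14 SkM libraries the slow marker score and the log2 sum of the 10 genes had a Pearson r of 0.68, points that share a library, its scaling and its group; for the score of the 12 other fibre markers r was -0.48. Myh2 was also lowest in CREX libraries 2 and 3, at 259 and 211 CPM, against 2780 CPM in CREX library 1 and 2137 to 3633 CPM in EX libraries. The relation did not extend to every library: EX library 1 had 375 CPM of slow markers and 2247 CPM of the 10 genes, and the CR libraries had 1729 to 2036 CPM of slow markers with 1533 to 1682 CPM of the 10 genes. With the slow fibre score as a covariate no member passed in CREX against EX, where the 9 genes other than Cpt1a kept negative log2 changes from -0.21 (Cpt1b) to -0.71 (Hadhb), and 9 passed in CR against control. Hepatocyte markers summed to 0.58 and 0.687 CPM in CREX libraries 2 and 3 and to 50.8 to 289 CPM in the CR libraries. Endothelial markers were lowest in CREX libraries 2 and 3, at 145 and 126 CPM, against 241 CPM in CREX library 1 and 272 to 341 CPM in EX libraries. The part of these markers in the result was not tested.

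With all 14 SkM libraries in 1 fit and training as a term, the CR effect passed the test in 9 members, all lower, where 16.9% of all genes passed as lower. The smallest adjusted p-values belonged to Cpt2 (log2 change -0.74 ± 0.10, adjusted p = 5.6e-05) and Hadhb (-0.82 ± 0.11, adjusted p = 6.94e-05). Hadha followed at -0.67 ± 0.11 (adjusted p = 0.00029), Slc25a20 at -0.59 ± 0.11 (0.000832) and Cpt1b at -0.54 ± 0.10 (0.00108). Acadm (-0.63), Acaa2 (-0.81), Acadvl (-0.71) and Acadl (-0.62) had adjusted p-values of 0.0021 to 0.00691. In 8 of the 9 the fold passed 1.5, as it did in 7.90% of all genes in that direction, Cpt1b being the exception.

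These same 9 genes passed the test in each of 22 alternative settings, among them leaving out any library, the slow fibre covariate and library totals. Without CREX libraries 2 and 3 their log2 changes ran from -0.33 ± 0.08 (Acadl) to -0.64 ± 0.08 (Hadhb). Cpt1a had a log2 change of 0.23 ± 0.11 (adjusted p = 0.129). Library totals in place of TMM moved the median of all genes by 0.15 on the log2 scale, and Cpt1a then passed as higher (0.38 ± 0.12, adjusted p = 0.0198), still above that median.

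Training changed no member past the test in SkM. Fed freely, the EX libraries had 12 genes of any kind past the test against controls (0.0930%), and the members' log2 changes ran from -0.32 (Cpt1a, 95% interval -0.58 to -0.07) to 0.05 (Acadvl, -0.14 to 0.25). In edgeR 2 members, Cpt1a and Cpt1b, and 6.85% of all genes had an unadjusted p under 0.05, and DESeq2 called none. All EX libraries lay below all control libraries in Cpt1b, Hadha and Hadhb, as they did in 2.38% of all genes. Hadhb, at 324 to 347 CPM in EX against 363 to 441 CPM in controls, differed by -0.19 (95% interval -0.39 to 0.00).

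On top of CR, the training comparison had wide intervals, as CREX libraries 2 and 3 lay below and CREX library 1 above the CR libraries in most members. In Acadl, CR libraries held 202 to 215 CPM and CREX libraries 224, 102 and 109 CPM. No member passed in CREX against CR, where no gene of any kind did (0% of 13068), none had an unadjusted p under 0.05 in edgeR (3.65% of all genes had), and DESeq2 called none. Without CREX library 1, 2 members passed. The direction also depended on the CREX libraries. With CREX libraries 2 and 3 left out, so that CREX rested on 1 library, the members' median log2 change was 0.21, against -0.30 with all libraries. With the slow fibre score as a covariate the members' log2 changes were all positive, from 0.27 to 0.81, and none passed. With all libraries and no covariate, the 95% interval for Hadhb was -0.99 to 0.05.

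The training term over all 4 SkM groups called 4 genes of any kind (0.0294%) and no member, with 1 of the 10, and 6.39% of all genes, at an unadjusted p under 0.05 (Hadhb, log2 change -0.31 ± 0.11, adjusted p = 0.543) and none in DESeq2. The CR by EX interaction called no gene at all (0%), with Cpt1a alone of the members, and 4.92% of all genes, at an unadjusted p under 0.05 (0.48 ± 0.20, adjusted p = 0.941) and none in DESeq2. Left without CREX library 1, the interaction passed in 4 members, so the call turned on that library. Its sign turned on the other CREX libraries. With CREX libraries 2 and 3 left out the members' interaction terms were all positive, from 0.11 to 0.60 (median 0.27). With all libraries their median was -0.19.

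Cpt1a was the member for which no fall under CR was detected in SkM. In EX against control its log2 change of -0.32 was the most negative of the members, and did not pass (edgeR, adjusted p = 0.556). Its SkM libraries held 10.8, 7.72, 9.09 and 9.24 CPM in EX and 13.8, 10.4 and 14.0 CPM in CREX. That was a log2 change of 0.46 ± 0.15 in CREX against EX that did not pass (adjusted p = 0.0682). The ratio of Cpt1b to Cpt1a per kilobase, computed within each library and so free of scaling, was 46.1 ± 4.77 in controls (SD, n = 4) and 31.7 ± 3.22 in CR (SD, n = 3), with ranges of 39.4 to 50.5 and 28.4 to 34.8 that did not overlap. It was 50.9 ± 9.29 in EX (SD, n = 4) and 25.2 ± 6.85 in CREX (SD, n = 3), again without overlap. In BAT it was 69.9 to 85.6 as group means, with the EX libraries (61.2 to 75.5) below the controls (77.0 to 86.1). Cpt1a thus made up 2.14% of CPT1 transcripts per kb in SkM controls, 3.08% under CR and 4.01% in CREX, and 1.16% to 1.42% in BAT. These ratios and shares were read from the values and not tested. Hepatocyte markers summed to 50.8 to 289 CPM in SkM CR libraries, 0.580 to 60.2 CPM in CREX and at most 8.62 CPM in controls. The part of liver RNA in the Cpt1a values was not tested.

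**Figure D3:**
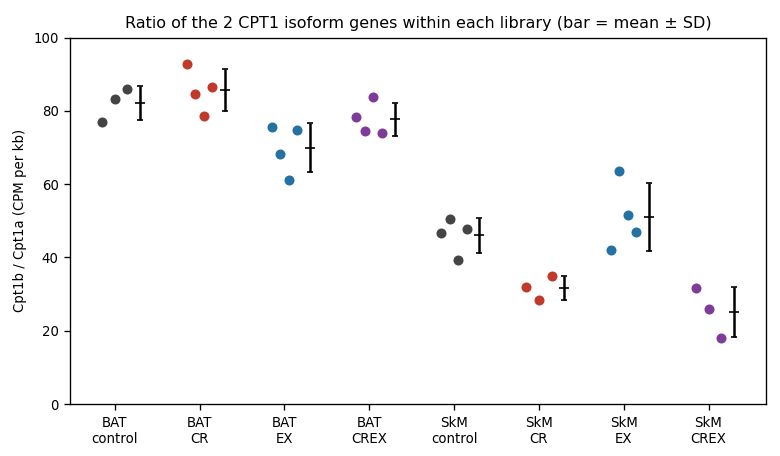
Ratio of Cpt1b to Cpt1a, each as CPM per kb of transcript, in every library of the 8 groups, with the mean ± SD beside the points. The SkM CR and CREX libraries lie below all SkM control and EX libraries, and all SkM control libraries lie at or below 50.5.

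The ratio of the 2 trifunctional protein subunit genes had a narrow spread within each group, but it differed between the tissues and was lower in SkM CREX. Hadhb over Hadha, in CPM, was 0.890 ± 0.041 in SkM controls, 0.866 ± 0.016 in CR and 0.888 ± 0.042 in EX. In CREX it was 0.744 ± 0.033, and its 3 libraries, from 0.724 to 0.783, lay below all other SkM libraries, the lowest of which was at 0.850; this contrast was seen in the values and not tested. In BAT the ratio was higher, 1.78 ± 0.007 in controls and 1.69 to 1.76 as means of the other groups.

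Across the SkM libraries the members other than Cpt1a varied together around their group means. The correlation was pooled over the groups and was not computed within each of them. Deviations from the group means had a median Pearson r of 0.93 over the pairs of these 9 genes (0.81 to 0.98, n = 14 libraries), and of 0.21 between Cpt1a and each of them; the CREX libraries, which share depth and scaling with every gene, carry much of the spread. In BAT the corresponding medians were 0.66 and 0.40 (n = 15). The genes whose levels were most like the members' mean in SkM were Etfdh, Slc25a22, Decr1, Ephx2 and Cat (r from 0.97 to 0.99 over 14 libraries). In BAT they were Dgat2, Etfdh, C030006K11Rik, Hadh and Echs1 (r from 0.84 to 0.90 over 15 libraries).

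**Figure D4:**
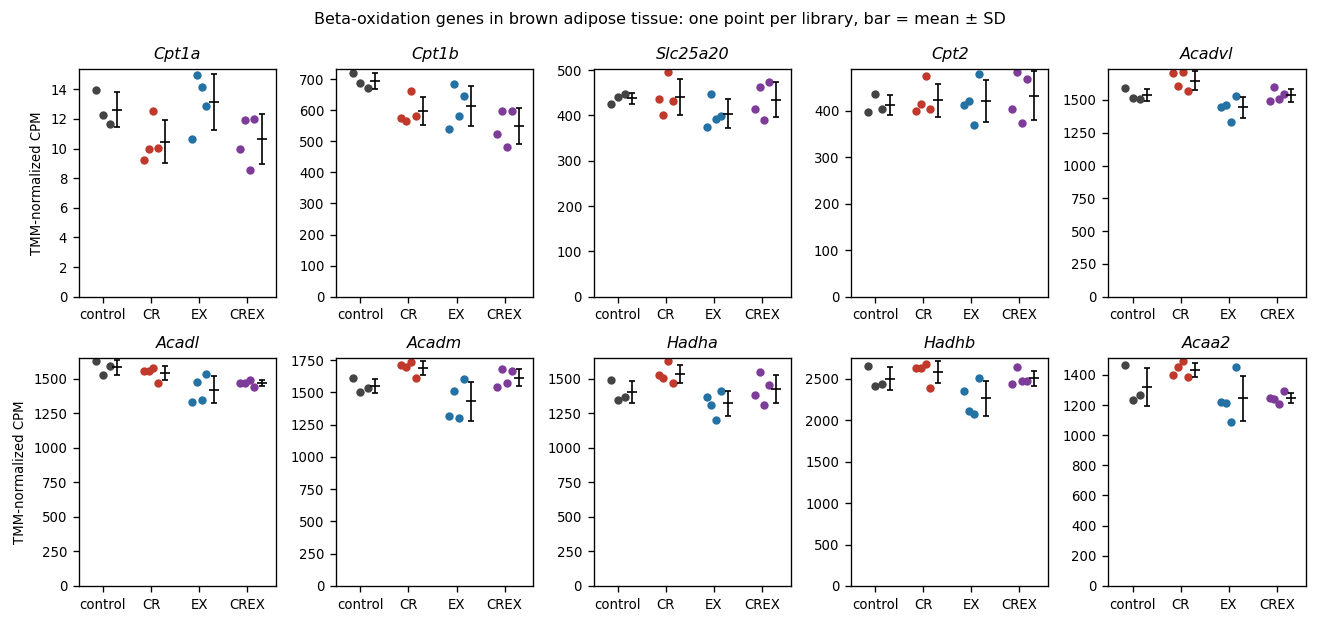
Expression of the 10 genes in BAT, as TMM-normalized CPM (vertical axes start at 0) for each library of the control, CR, EX and CREX groups, with the mean ± SD beside the points. Levels are close across the groups, with Cpt1b lower in the CR libraries than in all control libraries.

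In BAT no fall of the pathway was detected under restriction. The sum of the 10 genes was 11449 ± 480 CPM in controls, 11901 ± 474 in CR, 10575 ± 782 in EX and 11221 ± 433 in CREX (SD), and the ranges of control and CR libraries overlapped. No member passed the test in CR against control, while 20.9% of all genes did; 2 members (Cpt1a and Cpt1b) and 35.8% of all genes had an unadjusted p under 0.05 in edgeR, and DESeq2 called Cpt1b. The 95% intervals of the 10 log2 changes lay between -0.53 and 0.28.

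Cpt1b was the BAT member with the clearest difference. It held 721, 686 and 671 CPM in controls and 576, 565, 663 and 582 CPM in CR libraries, and the groups did not overlap, as in 17.0% of all genes in that direction (log2 change -0.21 ± 0.07, adjusted p = 0.0567). Acadm lay the other way, at 1608, 1505 and 1535 CPM in controls and 1710, 1697, 1737 and 1614 CPM in CR libraries, without overlap (0.13 ± 0.06, adjusted p = 0.146), as in 16.6% of all genes that were higher. Cpt1a held 14.0, 12.3 and 11.6 CPM in controls and 9.26, 9.97, 12.6 and 10.03 CPM in CR libraries, which overlapped through CR library 3 (-0.27 ± 0.12, adjusted p = 0.135).

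The other 7 members overlapped between control and CR libraries. Slc25a20 and Cpt2 differed by 0.01 and 0.04 on the log2 scale, Acadl by -0.04, and Acadvl, Hadha, Hadhb and Acaa2 by 0.05 to 0.13. In trained mice no member passed in CREX against EX (8.01% of all genes did), with Cpt1a alone of the members, and 25.6% of all genes, at an unadjusted p under 0.05 in edgeR (-0.31 ± 0.14, adjusted p = 0.189) and none in DESeq2. All 10 members overlapped there. Acadm held 1314, 1508, 1297 and 1604 CPM in EX and 1542, 1679, 1574 and 1663 CPM in CREX libraries.

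With all 15 BAT libraries in 1 fit, 3 members passed for CR, near the background, where 17.5% of genes passed as lower and 15.8% as higher. Cpt1a fell by 18.3% (log2 change -0.29 ± 0.09, adjusted p = 0.0248) and Cpt1b fell by 12.0% (-0.18 ± 0.06, adjusted p = 0.0312). Acadm rose by 11.05% (0.15 ± 0.05, adjusted p = 0.0263). None passed without CREX library 3 and EX libraries 2 and 3, which held the most muscle RNA (7524, 4651 and 4599 CPM of fibre markers), and leaving out control library 1 or 2 or EX library 2 or 3 left 1. With the muscle fibre score as a covariate the same 3 passed. In these tests 6 of 12 brown adipocyte markers fell and 1 rose, none of 12 muscle fibre markers passed, and 5 of 8 endothelial, 8 of 8 immune and 6 of 8 fibroblast markers fell; the part of these in the members' values was not tested.

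Training changed no BAT member past the test. No gene of any kind passed in EX against control (0% of 13407), nor did any member reach an unadjusted p under 0.05 in edgeR, where 7.25% of all genes did, and DESeq2 called no member. Against CR, CREX had 1 gene past the test (0.00763%), and Acaa2 was the 1 member at an unadjusted p under 0.05, with 7.63% of all genes: it held 1400, 1454, 1492 and 1386 CPM in CR and 1245, 1240.0, 1208 and 1291 CPM in CREX libraries, without overlap, as in 2.92% of all genes in that direction (log2 change -0.20 ± 0.05, adjusted p = 0.386 in edgeR and 0.0147 in DESeq2). Over all 4 groups the training term called no gene (0%), with 4 members, and 10.8% of all genes, at an unadjusted p under 0.05, all with negative log2 changes (Cpt1b, Acadvl, Acadl and Acaa2, -0.10 to -0.15, adjusted p of 0.34 to 0.395), and none in DESeq2. The interaction called none (0%), no member at an unadjusted p under 0.05 (5.75% of all genes), and none in DESeq2.

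**Figure D5:**
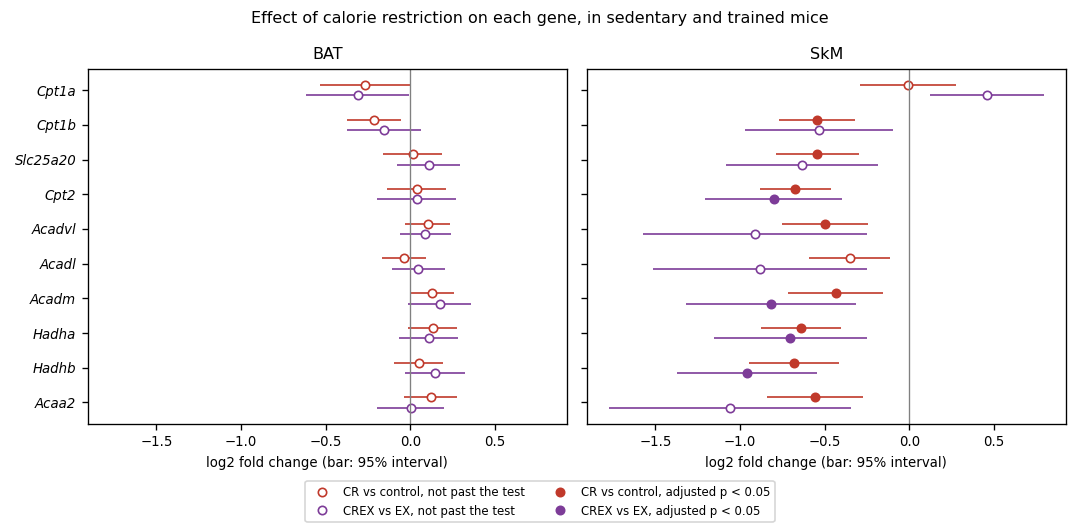
Log2 fold change of each gene under CR in BAT (left) and SkM (right), in sedentary mice (CR vs control) and trained mice (CREX vs EX), with 95% intervals as bars. Filled points passed the test: 8 in sedentary SkM, 4 in trained SkM and none in BAT.

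The CR effect differed between the tissues by a direct test. In sedentary mice the difference (BAT minus SkM) passed in 7 members, all with the more negative change in SkM, against 3.93% of all genes in that direction. It was largest for Hadha (0.78 ± 0.15, adjusted p = 0.00535), Hadhb (0.74 ± 0.16, adjusted p = 0.0109) and Cpt2 (0.72 ± 0.14, adjusted p = 0.00535). Acaa2 (0.69), Acadvl (0.61), Acadm (0.57) and Slc25a20 (0.57) followed at adjusted p-values from 0.0234 to 0.0435. Cpt1b (0.34 ± 0.14, adjusted p = 0.161), Acadl (0.32 ± 0.14, adjusted p = 0.189) and Cpt1a (-0.25 ± 0.19, adjusted p = 0.456) did not pass. With library totals, which moved the median of all genes by -0.18, 3 members passed, and 3 passed without BAT control library 2 or 3.

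In trained mice, none of which entered the sedentary test, the difference passed in 5 members. Hadhb (1.11 ± 0.21, adjusted p = 0.01), Acadm (0.997 ± 0.24, adjusted p = 0.0287), Cpt2 (0.85 ± 0.22, adjusted p = 0.0381) and Hadha (0.82 ± 0.22, adjusted p = 0.0439) had the more negative change in SkM, against 3.03% of all genes. Cpt1a went the other way (-0.76 ± 0.21, adjusted p = 0.0489), as did 2.55% of all genes, with a positive log2 change in SkM and a negative one in BAT. Without SkM CREX libraries 2 and 3 none of the 5 passed, without SkM CREX library 1 the count was 9, and leaving out any other single library left 1 to 3.

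The rest of the pathway was read in the same fits from lists of genes by role. The counts stand beside 16.9% of all genes lower and 16.6% higher for the CR effect in SkM. For this effect, 12 of 25 other enzymes of mitochondrial beta-oxidation and electron transfer passed as lower and 2 as higher (median log2 change -0.32). They were led by the short-chain dehydrogenase Acads (-0.81 ± 0.11, adjusted p = 5.25e-05), Pcca, a subunit of propionyl-CoA carboxylase (-0.44 ± 0.06), and Acad11 (-0.46 ± 0.07). Of 18 tested peroxisomal genes 8 passed as lower and 2 as higher, led by the bifunctional enzymes Ehhadh (-0.82 ± 0.12) and Hsd17b4 (-0.54 ± 0.08). Upstream of the shuttle, 5 of 11 genes of fatty acid uptake and activation passed as lower and 3 as higher. The fatty acid binding protein gene Fabp3 (-1.55 ± 0.25, adjusted p = 0.000437) and the acyl-CoA synthetase gene Acsl1 (-0.97 ± 0.14, adjusted p = 0.000112) fell, and Acsl6 rose (0.53 ± 0.11).

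Genes of carnitine supply and of other acyltransferases, read as 1 list, fell in part: 4 of 8 genes passed as lower and none as higher. The lower genes were led by Tmlhe, the first enzyme of carnitine synthesis (-1.03 ± 0.12, adjusted p = 2.27e-05). The carnitine transporter Slc22a5 (-0.51 ± 0.08) and the related gene Slc22a4 (-1.03 ± 0.17) followed. Genes that set malonyl-CoA, the inhibitor of CPT1, were divided, with 3 of 11 lower and 3 higher; Acaca, an acetyl-CoA carboxylase, rose (0.89 ± 0.19, adjusted p = 0.00315). Among 23 regulators 9 passed as higher and 5 as lower. The highest ranked were Foxo1 (2.45 ± 0.15, adjusted p = 9.18e-08), Nrip1, a corepressor of nuclear receptors (1.58 ± 0.12, adjusted p = 2.19e-07), and Foxo3 (1.13 ± 0.09, adjusted p = 2.53e-07).

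Genes of the citrate cycle and respiratory chain gave a measure of mitochondrial transcripts at large. In sedentary SkM none of 31 passed for CR, while 14.0% of all genes did, with a median log2 change of -0.20 beside the members' -0.54. In trained SkM 14 of 31 passed as lower (median -0.46, members -0.81), where 6.96% of all genes did. There the 31 genes summed to 16670.9 CPM in CREX library 1 and to 11860.5 and 12781.8 CPM in CREX libraries 2 and 3. The EX libraries held 17030.3 to 18658 CPM of them. For the CR effect over all 4 groups 21 of 31 passed as lower (median -0.28, members -0.65), where 16.9% of all genes did. In BAT, where 15.8% of all genes were higher and 17.5% lower, the same effect passed in 8 as higher and 1 as lower of 31 (median 0.08, members 0.06), and in 7 as higher and 3 as lower of the 25 other beta-oxidation enzymes (median 0.07). The differences between these medians were not tested.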

How the data were processed

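Total RNA was extracted, and 29 cDNA libraries were sequenced in paired ends on a BGISEQ-500. Per the study's methods and the submitters' processing notes, the authors trimmed reads with trim-galore, aligned them to mm10 (GRCm38) with STAR (2.7.10a) and deposited RSEM expected counts per gene symbol; the annotation is not given in the sources used here. RSEM shares reads between overlapping genes, and Cpt1b overlaps another gene. The table held 24770 symbols, 27 of them date-like and 2 duplicated, none a member.

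Expected counts were rounded and fitted with edgeR (4.0.16) in R 4.3.3: TMM scaling, filterByExpr, robust quasi-likelihood test, Benjamini-Hochberg adjustment over all genes. Pairs of groups were fitted alone, main effects, interactions and tissue differences over all groups concerned, and the script was tested on simulated data. Where 1 library is left in a group, the fit assumes that it varies like the others. DESeq2 (1.42.0) and other settings were alternatives. CPM per kb used the longest principal transcript of GENCODE M21. The 10 members were named whatever their values; from each other list up to 3 genes with the smallest p were named, and the 5 genes most correlated with the members' mean were listed. The members and lists were chosen with earlier results of these data known. The labels do not say that libraries of 1 group came from separate mice, so p-values measure the spread between these libraries, which may be technical.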

Additional observations from a re-analysis of the deposited data

Results flagged for a closer look

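Hadhb had a library far from the rest of its group in both tissues: BAT CR library 4 was low at 2393 CPM, against 2635 to 2685 CPM in the other BAT CR libraries, and SkM control library 1 was high at 441 CPM, against 363 to 372 CPM in the other SkM controls. These were 2 of 50 sets of values examined, and chance alone gives about 1 in 20.

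The effect of calorie restriction differed between tissues, by a test of the difference itself (edgeR, log2 change in BAT minus that in SkM). In sedentary mice this held for Hadha (0.78), Hadhb (0.74), Cpt2 (0.72), Acaa2 (0.69), Acadvl (0.61), Acadm (0.57) and Slc25a20 (0.57). In trained mice it held for Hadhb (1.11), Acadm (0.997), Cpt2 (0.85) and Hadha (0.82), and for Cpt1a in the other direction (-0.76).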

How the results depend on the processing

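The 9 members lowered by CR over all SkM groups, and the 9 higher in BAT than SkM controls, passed the test in every alternative fit, though Cpt1b did not reach a fold of 1.5 for CR in SkM, and no named call changed sign in 823 comparisons (663 stayed on their side of the threshold, 160 did not). Leaving out 1 library gave these ranges of members past the test: BAT CR vs control 0 to 2, SkM CR vs control 5 to 7, SkM CREX vs EX 0 to 9, SkM CREX vs CR 0 to 2, BAT CR effect 1 to 4, SkM CR by EX interaction 0 to 4, and tissue difference 3 to 7 in sedentary and 1 to 9 in trained mice. For BAT CR vs control (0), DESeq2 gave 1, at least 10 counts in every library 1, the muscle fibre score as covariate 2 and library totals 1, and for BAT CREX vs CR (0) DESeq2 gave 1. For SkM CR vs control (8), asking for a fold above 1.5 gave 3, the fit of all 4 groups 5 and library totals 5. For SkM CREX vs EX (4), DESeq2 gave 9, the fit of all 4 groups 10, the slow fibre covariate 0, and leaving out CREX libraries 2 and 3 gave 0. For the BAT CR effect (3), a fold above 1.5 gave 0, DESeq2 5, and leaving out the 3 libraries with most muscle RNA 0. For the sedentary tissue difference (7), no filter on low counts gave 3 and library totals 3. For the trained one (5), DESeq2 gave 9, at least 10 counts in every library 8, library totals 3, leaving out SkM CREX libraries 2 and 3 gave 0, and leaving out the 3 BAT libraries 0. The causes were not tested. Left-out sets of libraries and library totals were chosen after seeing the data. Cpt1a had the lowest level in both tissues, at 7.72 to 15.0 CPM per library, where 3 counts amount to 0.12 to 0.14 CPM. How far depth limits it was not tested.

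Within a tissue, replicate numbers showed no clear pairing of the groups. Deviations of same-numbered libraries had mean correlations from -0.27 to 0.16, and in no comparison were all over 0.1. With 3 or 4 pairs per comparison, this cannot show that pairing is absent. Pairing of BAT with SkM libraries was not tested. With the replicate number as a block, 2 members passed in SkM CREX vs EX and 3 in the trained tissue difference, and every other count stayed within 1.5 times its value.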

Other observations

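In BAT the steps around the shuttle held genes that passed the test under restriction, as 3 of the 10 members did, beside 15.8% of all genes higher and 17.5% lower. Over all 4 BAT groups, 4 of 12 genes of fatty acid uptake and activation passed as higher and 1 as lower for the CR effect in edgeR. The fatty acid transport protein gene Slc27a1 (log2 change 1.43 ± 0.13, adjusted p = 2.21e-06) and Acsm5, a medium-chain synthetase gene (1.18 ± 0.16, adjusted p = 4.03e-05), rose, and Fabp3 fell (-1.19 ± 0.16, adjusted p = 9.98e-05). Aldh9a1, an enzyme of carnitine synthesis, rose (0.47 ± 0.05, adjusted p = 3.08e-06), while the carnitine transporter Slc22a5 was lower (-0.22 ± 0.08, adjusted p = 0.0402). Of the AMPK subunits, which restrain malonyl-CoA synthesis, Prkag1 rose (0.35 ± 0.05) and Prkaa1 (-0.34 ± 0.06) and Prkag2 (-0.89 ± 0.19) fell. Inside the mitochondrion Hsd17b10 (0.82 ± 0.10, adjusted p = 3.29e-05) and the thioesterase gene Acot2 (0.70 ± 0.10, adjusted p = 0.000143) rose, and Pnpla2, which encodes the adipose triglyceride lipase, rose as well (0.36 ± 0.05, adjusted p = 0.00013). In sedentary BAT, Acaca and Acly, of the 11 genes that set malonyl-CoA, rose in CR against control. Their log2 changes were 0.67 ± 0.09 and 1.26 ± 0.15 (edgeR, adjusted p = 0.00072 and 0.00092). The 11 genes summed to 6194 to 6653 CPM in CR and 3353 to 4331 CPM in controls. In trained BAT the sums overlapped, at 6082 to 7314 CPM in CREX and 2902 to 7927 CPM in EX.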
